A study of Homo sapiens with 12 samples.

Results

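Immediate early genes are genes whose transcription starts within minutes of a stimulus or a stress, without new protein synthesis. The 10 described here are FOS, FOSB, JUN, JUNB, JUND, EGR1, MYC, IER2, IER3 and DUSP1. They were taken by name, with earlier results of these data known, from a table of ribosome footprints counted over coding sequences. Each of its 19305 rows is a RefSeq mRNA. All 10 were found, 1 row each, and 9 held at least 1 read. IER3 was listed at 0 in every library.

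FOS, FOSB, JUN, JUNB and JUND encode basic leucine zipper proteins that pair to form the transcription factor AP-1, EGR1 encodes a zinc finger transcription factor, and MYC encodes the transcription factor that pairs with MAX. IER2 and IER3 encode small regulatory proteins, and DUSP1 encodes a phosphatase that switches off the MAP kinases and so acts as a brake on the pathway. Growth factors reach these genes mainly through the ERK pathway and the factors SRF and ELK. Stresses such as arsenite reach them through the kinases JNK and p38. Their mRNAs are short-lived, and several carry AU-rich elements that speed their decay.

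The study asked what the nuclear cap-binding complex and the initiation factor eIF2A do for translation under stress and in stem cells. It covers 12 libraries in 6 groups of 2, numbered set 1 and set 2. HEK293T, an established embryonic kidney line that expresses the SV40 large T antigen, gave 8 libraries, all from cells given sodium arsenite: control siRNA or eIF2A siRNA, each with mRNA pulled down with CBP80 (which with CBP20 makes up the nuclear cap-binding complex) or with eIF4E (the cytoplasmic cap-binding protein) before footprinting. H9, a human embryonic stem cell line, gave 4 libraries with control shRNA or eIF2A shRNA, with no arsenite and no pull-down named. The sources used here give no arsenite dose or time and no siRNA or shRNA sequence. All HEK293T cells had arsenite, so its effect on these genes cannot be measured here, and a footprint count follows both the amount of an mRNA and its translation, which these values do not separate. In such bulk samples fewer cells of a kind and less RNA per cell cannot be told apart. Whether the sets are separate cultures is not in the labels, and a p-value here weighs a difference only against how far these libraries lie apart, which could be technical scatter. In the siRNA comparison and in that of the 2 lines, this spread was for most genes drawn largely from all rows. It rested little on how far the libraries of that gene lay apart.

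Coding sequences received 4331459 to 5775177 reads per HEK293T library and 937990 to 1878700 per H9 library. Values are given as CPM, reads per 1000000 coding reads, and 3 reads amount to between 0.519 and 3.20 CPM depending on the library. The CBP80 and eIF4E libraries of the same siRNA and set differed by little more than sampling noise (chi-square per degree of freedom 1.01 to 1.03), whereas libraries of one group from different sets gave 3.95 to 5.52, so each such pair was summed and counted as 1 sample for the siRNA comparison. The H9 libraries of one set with different shRNA labels gave 1.04 to 1.07, and those of one shRNA label from different sets gave 2.75 to 3.13. Stem cell markers summed to 6236 to 6772 CPM in H9 and 90.4 to 114 CPM in HEK293T over 9 markers, of which POU5F1 was at 0 in all 12 libraries. The targeted gene, EIF2A, did not follow every label. In HEK293T it stood at 82.7 and 83.8 CPM in the control set 1 libraries and at 81.3 and 86.1 in control set 2, against 93.8 and 98.4 in eIF2A siRNA set 1 and 45.3 and 48.0 in eIF2A siRNA set 2 (log2 difference -0.33 ± 0.36, edgeR adjusted p = 0.643). In H9 it stood at 103 (control) and 110 (eIF2A shRNA) CPM in set 1 and at 60.9 and 68.2 in set 2, so it followed the set and not the shRNA label. The names of the deposited H9 files also carry 1 letter for both libraries of set 1 and another for both of set 2. Whether the H9 labels for set and shRNA were exchanged was not tested. EIF2A was thus lower than in control libraries only in the pair labelled eIF2A siRNA set 2, and knockdown groups are called below by their labels.

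The stretches just upstream of the start sites show which letters of known signal-responsive elements these genes carry. The windows below are the 250 bases before the RefSeq start site (build GRCh38.p14), 5′ to 3′ on the gene's strand, and 8 of the 10 genes matched an entry in the table. EGR1 is shown because it was the gene called in the siRNA comparison, FOS and JUN because they were the AP-1 genes with the most reads, and IER2 because it differed little between the cell lines. Capitals mark matches on either strand to 6 patterns: the full cyclic AMP response element TGACGTCA, its TGACGT part (which lies within every full element), the AP-1 site TGANTCA, its variant TGACATCA, the CArG box to which SRF binds, and the TATA box TATAAA.
EGR1 (chr5:138465229-138465478, plus strand): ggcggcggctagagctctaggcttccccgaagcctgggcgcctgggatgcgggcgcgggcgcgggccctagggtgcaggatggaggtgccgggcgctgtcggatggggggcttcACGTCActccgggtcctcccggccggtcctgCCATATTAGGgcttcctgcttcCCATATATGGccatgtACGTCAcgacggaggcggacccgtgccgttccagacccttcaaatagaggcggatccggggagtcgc
FOS (chr14:75278578-75278827, plus strand): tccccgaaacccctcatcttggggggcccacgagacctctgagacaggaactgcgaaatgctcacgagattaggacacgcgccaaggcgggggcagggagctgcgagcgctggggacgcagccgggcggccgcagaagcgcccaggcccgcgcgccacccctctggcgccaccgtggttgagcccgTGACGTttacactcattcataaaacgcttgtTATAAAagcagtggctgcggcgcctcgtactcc
JUN (chr1:58784048-58784297, minus strand): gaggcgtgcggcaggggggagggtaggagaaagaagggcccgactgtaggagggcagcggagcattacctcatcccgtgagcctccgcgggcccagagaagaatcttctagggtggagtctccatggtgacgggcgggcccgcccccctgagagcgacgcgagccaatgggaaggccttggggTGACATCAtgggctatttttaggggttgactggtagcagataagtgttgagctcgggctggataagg
IER2 (chr19:13150161-13150410, plus strand): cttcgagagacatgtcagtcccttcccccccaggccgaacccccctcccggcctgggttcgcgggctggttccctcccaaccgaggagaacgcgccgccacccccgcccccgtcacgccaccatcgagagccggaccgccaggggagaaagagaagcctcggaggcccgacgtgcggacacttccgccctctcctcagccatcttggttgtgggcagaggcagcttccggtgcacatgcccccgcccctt
The EGR1 window held 2 CArG boxes, at 105 to 96 and 83 to 74 bases before the start, where 1.16% of 35116 RefSeq windows of the same length held at least 1. It also held the TGACGT part in reverse orientation at 2 places. FOS had this part 64 to 59 bases before the start and a TATA box closer to the start. The variant TGACATCA lay 67 to 60 bases before the JUN start, and 2.37% of all windows held it. No capitals stand in the IER2 window. Of the 8 windows, those of DUSP1, EGR1, FOS, FOSB and JUND held the TGACGT part (7.10% of all windows), those of DUSP1 and JUND the full element (1.65%), those of DUSP1, FOS, FOSB and JUNB a TATA box (10.7%), and none the AP-1 site TGANTCA (6.57%). These are matches of letters, and binding was not measured.

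The siRNA comparison asked how footprints changed in arsenite-treated HEK293T cells labelled eIF2A siRNA against control. EGR1 fell, and it was the only 1 of the 9 genes tested that passed the threshold (edgeR quasi-likelihood test on 2 against 2 summed libraries, Benjamini-Hochberg adjusted p under 0.05). Over all 12331 rows tested 12.4% were called, 6.15% higher and 6.29% lower (with library sizes alone as the scaling, 740 higher and 292 lower), so 1 of 9 is near the background. The 9 differences had a median of -0.25 on the log2 scale, against 0.0038 for all rows, and 8 of them lay below 0, as did 49.5% of all rows (7 of the 9 with library sizes alone, a scaling that moved the median of all rows to 0.09). Without the control set 2 library pair the median of the 9 was -0.09, with 7 below 0.

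EGR1 footprints in the control libraries stood at 437 (CBP80) and 438 (eIF4E) CPM in set 1 and at 468 and 460 in set 2. In the libraries labelled eIF2A siRNA they stood at 337 and 337 CPM in set 1 and at 326 and 318 in set 2. Every control library was above every eIF2A siRNA library. Since each pull-down pair counts as 1 sample, this is 2 against 2. The share of all rows so separated was not counted, so no result is read from the separation. The groups' means were 465 ± 27.6 and 320 ± 5.02 normalised CPM (SD, n = 2 summed libraries each), a log2 change of -0.54 ± 0.14 (SE, edgeR adjusted p = 0.00505). Within set 1, where EIF2A itself was not lower, EGR1 stood at 0.771 of control (95% exact interval 0.737 to 0.805, counting error only), and within set 2 at 0.693 (0.663 to 0.725). The call did not hold without the control set 2 library pair (log2 change -0.48, edgeR adjusted p = 0.334), under which only 75 of all rows were called.

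JUN, the leucine zipper protein that can form AP-1 with itself or with FOS, had the next largest difference. Its control libraries held 1072 and 1072 CPM in set 1 and 1061 and 1038 in set 2, and those labelled eIF2A siRNA held 846 and 866 in set 1 and 942 and 920 in set 2. The groups did not overlap here either, with the same limit as for EGR1. The log2 difference was -0.33 ± 0.15 (edgeR adjusted p = 0.116; 95% interval -0.62 to -0.05), which did not pass over all rows, though it did without the eIF2A siRNA set 2 pair (-0.45, adjusted p = 0.0196). The ratio to control was 0.798 (0.776 to 0.821) in set 1 and 0.886 (0.862 to 0.910) in set 2.

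FOS, which forms AP-1 only with a JUN protein, lay at 674 and 688 CPM in control set 1, 734 and 743 in control set 2, 617 and 638 in eIF2A siRNA set 1 and 626 and 617 in eIF2A siRNA set 2. Control libraries were again all above those labelled eIF2A siRNA, by a margin smaller than for EGR1 and with the same limit. Its log2 difference of -0.27 ± 0.14 did not pass (edgeR adjusted p = 0.204; 95% interval -0.55 to 0.01). FOSB, a close relative of FOS, spanned 45.9 to 62.3 CPM in control and 48.0 to 58.5 in eIF2A siRNA libraries, with a log2 difference of -0.08 ± 0.14 (edgeR adjusted p = 0.766).

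JUNB and JUND, which can take the place of JUN in AP-1, did not keep a direction between the sets. JUNB stood at 19.9 and 22.5 CPM in control set 1 against 34.0 and 30.3 in eIF2A siRNA set 1, but at 30.4 and 33.5 in control set 2 against 30.4 and 32.0. Its ratio to control was 1.52 (1.28 to 1.81) in set 1 and 0.983 (0.840 to 1.15) in set 2, and only the control set 1 pair stood apart from the other libraries. JUND was at 46.4 and 48.1 CPM in control set 1, 49.5 and 51.7 in control set 2, 54.7 and 60.7 in eIF2A siRNA set 1 and 39.7 and 36.5 in eIF2A siRNA set 2. The eIF2A siRNA pairs therefore fell on opposite sides of the controls, with ratios of 1.22 (1.08 to 1.37) and 0.753 (0.660 to 0.860). Neither gene passed the edgeR test, JUNB with a log2 difference of 0.18 ± 0.16 (adjusted p = 0.506) and JUND with -0.13 ± 0.15 (adjusted p = 0.610).

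None of the other genes passed. MYC lay between 390 and 413 CPM in control and between 382 and 434 in eIF2A siRNA libraries, and its ratio to control was 1.07 (1.02 to 1.11) in set 1 and 0.936 (0.896 to 0.978) in set 2. These intervals cover counting error only and lie on opposite sides of 1. The ratios use library sizes alone, a scaling that put the median of all rows at 0.09 on the log2 scale. The edgeR log2 difference of MYC was -0.09 ± 0.14 (adjusted p = 0.716). IER2, the product of which is a nuclear protein, lay between 134 and 160 CPM in control and between 125 and 144 in eIF2A siRNA libraries (log2 difference -0.25 ± 0.14, edgeR adjusted p = 0.228). For DUSP1 the control set 1 libraries, at 91.1 and 97.9 CPM, overlapped the 93.3 to 94.0 CPM of all eIF2A siRNA libraries, while control set 2 stood above them at 116 and 116 (log2 difference -0.26 ± 0.14, edgeR adjusted p = 0.216). With pull-downs summed DUSP1 stood at 94.5 and 116 CPM in control sets 1 and 2 and at 93.4 and 93.6 in the eIF2A siRNA sets. The share of uniquely mapped reads outside coding sequence also differed between the groups, at 40.0 to 40.2% and 35.3 to 35.5% in control sets 1 and 2 and 51.1 to 51.3% and 42.4 to 42.5% in eIF2A siRNA sets 1 and 2, and its part in these results was not tested. Of the marker lists of cell types, 3 had 1 gene called each in this comparison and the other lists none. TAGLN, 1 of 5 fibroblast markers tested, rose from 1.39 ± 0.0594 to 3.69 ± 1.14 normalised CPM (log2 change 1.403 ± 0.36, edgeR adjusted p = 0.00505), and NEFM, 1 of 4 HEK293T-associated markers tested (-0.46 ± 0.13, adjusted p = 0.0143), and PODXL, 1 of 3 stem cell markers tested (-0.42 ± 0.15, adjusted p = 0.0457), fell. Their part was not tested either.

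**Figure D1:**
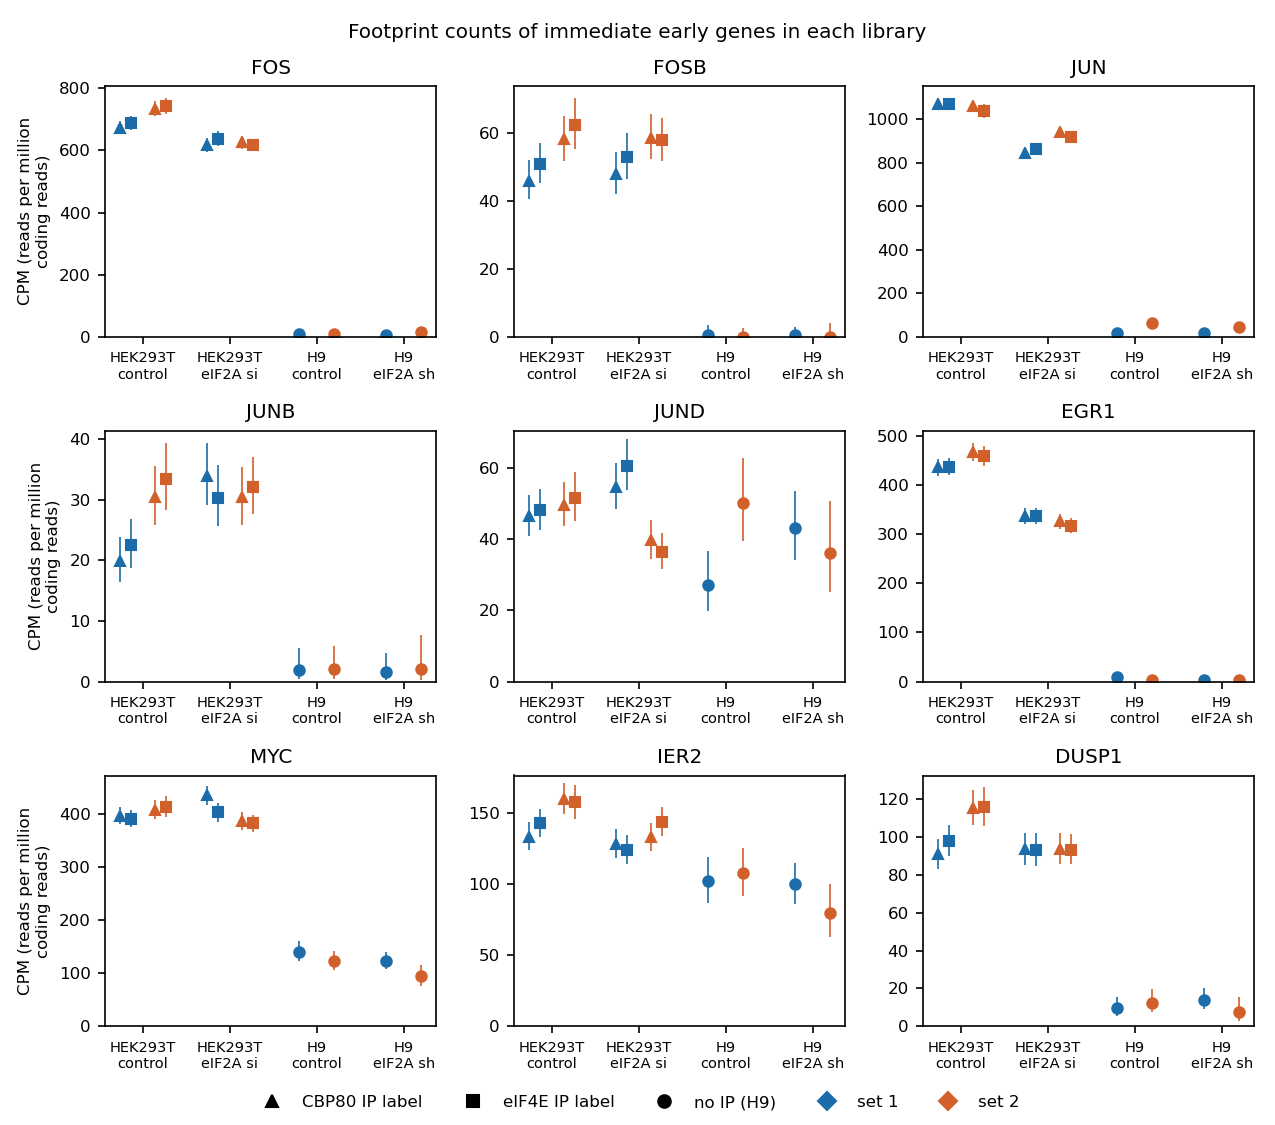
Footprint level of 9 immediate early genes in each of the 12 libraries, in CPM on a linear axis from 0. Triangles are CBP80 and squares eIF4E pull-downs of HEK293T, and circles are H9. Blue is set 1 and orange set 2, and bars are exact 95% intervals for counting error. With pull-downs summed, EGR1, JUN, FOS and DUSP1 were lower in both HEK293T sets labelled eIF2A siRNA than in both control sets. For DUSP1 the margin was small (93.4 and 93.6 CPM against 94.5 in control set 1). Only EGR1 was called. The share of all rows so separated was not counted, so no result is read from the separation. The HEK293T and H9 libraries overlapped for JUND but for no other gene shown.

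**Figure D2:**
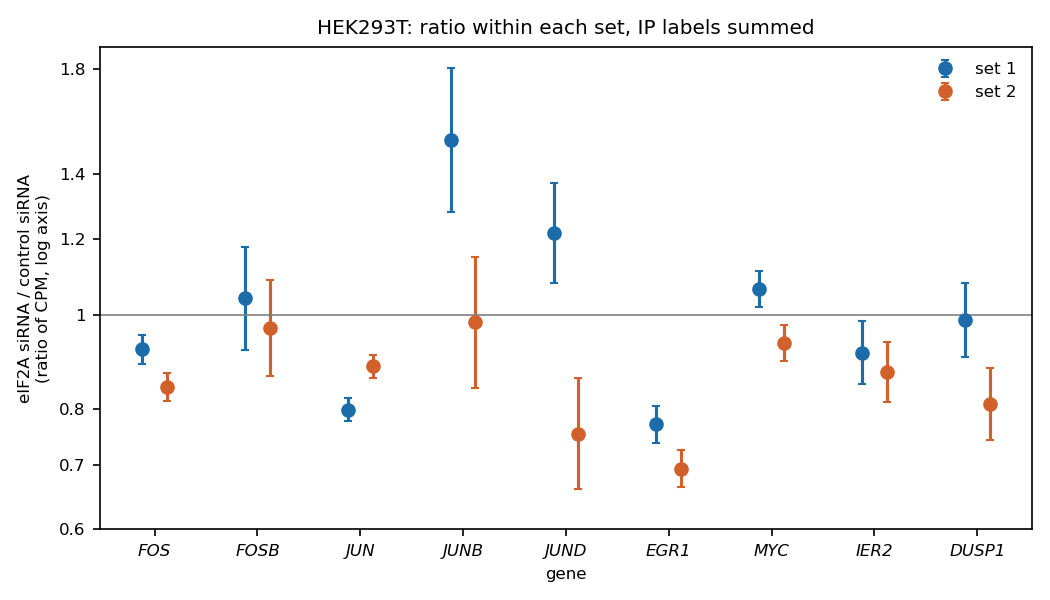
Ratio of CPM in HEK293T libraries labelled eIF2A siRNA to control within set 1 (blue) and set 2 (orange), pull-downs summed, on a log axis with exact 95% intervals for counting error. The intervals of EGR1, JUN, FOS and IER2 lay below 1 in both sets, and JUND and MYC lay above 1 in set 1 and below 1 in set 2. Of these genes only EGR1 was called by the edgeR test. The share of all rows with intervals below 1 in both sets was not counted, so no result is read from it. The ratios use library sizes alone, a scaling that put the median of all rows at 0.09 on the log2 scale and not at 0.

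The pull-down comparison asked whether mRNA held by CBP80 carried different footprints from mRNA held by eIF4E. Over all rows, the 2 libraries of each siRNA and set differed by little more than sampling noise (chi-square per degree of freedom 1.01 to 1.03). The values below therefore compare the labels, and whether the pull-downs separated 2 kinds of mRNA was not tested. None of the 9 genes passed the edgeR test, as none of the 11778 rows did (0%, with 99 rows at an unadjusted p under 0.05, and 1 call by DESeq2). With the 4 pairs of siRNA and set as a block a few rows were called, counted further below. None of the 9 genes was among them (log2 differences -0.09 to 0.03, smallest edgeR adjusted p = 0.998). The intervals that follow are from the fit without this block, in which the spread between the sets enters. The log2 differences, CBP80 minus eIF4E, ran from -0.09 (FOSB, 95% interval -0.34 to 0.17) to 0.03 (MYC, -0.14 to 0.20). EGR1 differed by 0.01 (-0.15 to 0.18), JUN by 0.01 (-0.18 to 0.19) and FOS by -0.02 (-0.19 to 0.16). The other leucine zipper genes gave -0.05 (JUNB, -0.37 to 0.27) and -0.04 (JUND, -0.32 to 0.23), and IER2 gave -0.04 (-0.25 to 0.17) and DUSP1 -0.02 (-0.23 to 0.19). Taken within each siRNA and set, 36 ratios of CBP80 to eIF4E ran from 0.884 to 1.12, and 35 of their counting intervals held 1. The exception was MYC in eIF2A siRNA set 1 (1.08, 1.02 to 1.15). The mRNAs of the pull-down targets did not differ beyond their error either, with log2 differences of 0.02 ± 0.09 for NCBP1, which encodes CBP80, and -0.04 ± 0.18 for EIF4E.

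The shRNA comparison set the H9 libraries labelled eIF2A shRNA against those labelled control, and no immediate early gene was called. Since EIF2A was not lower in the libraries labelled eIF2A shRNA, these values compare the labels and do not test a reduced amount of eIF2A. Of the 9 genes with reads, 6 had enough counts to be tested, and 0 of the 9751 rows passed the edgeR threshold (0%; 84 at an unadjusted p under 0.05; by DESeq2 none were called and 0 had an unadjusted p under 0.05). Counts were low: FOS had 15 and 13 reads in the control libraries of sets 1 and 2 and 12 and 13 in those labelled eIF2A shRNA. JUNB had 2 or 3 reads in each library and FOSB 1, 1, 0 and 0, so both fell below the filter. EGR1 did as well, with 14 reads in control set 1, 5 in control set 2, 5 in eIF2A shRNA set 1 and 2 in eIF2A shRNA set 2. The single larger count left the set 1 ratio of EGR1 at 0.300 with a wide interval (0.0845 to 0.881).

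Among the genes with more reads, MYC stood at 140 and 123 CPM in the H9 control libraries of sets 1 and 2 and at 122 and 93.8 in those labelled eIF2A shRNA. Its log2 difference was -0.26 ± 0.17 (95% interval -0.66 to 0.13). The MYC ratio to control was 0.874 (0.723 to 1.06, counting error only) in set 1 and 0.762 (0.585 to 0.987) in set 2. IER2 stood at 102 and 108 CPM against 100 and 80.0, a log2 difference of -0.20 ± 0.17 (-0.60 to 0.19). Its ratio was 0.980 (0.790 to 1.22, counting error only) in set 1 and 0.741 (0.556 to 0.980) in set 2. JUND again split by set, at 27.3 CPM (control) and 43.1 (eIF2A shRNA) in set 1 and 50.3 and 36.2 in set 2, which gave ratios of 1.58 (1.08 to 2.35) and 0.721 (0.466 to 1.09). DUSP1 lay between 7.46 and 13.8 CPM in the 4 libraries. The edgeR adjusted p was 1 for all 6 genes tested, and the intervals leave room for changes of the size seen for EGR1 in HEK293T: that of JUN was -1.88 to 0.85 around -0.51 and that of FOS -1.07 to 1.08 around 0.0074. For JUN this fit, which has no set block, gave a ratio to control of 0.70. Within the sets the ratio was 0.84 (0.484 to 1.46, counting error only) in set 1 and 0.754 (0.515 to 1.09) in set 2. JUND and DUSP1 both had a log2 difference of 0.05, with intervals of -0.63 to 0.74 and -0.83 to 0.94.

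The effect of the eIF2A label was also compared between the lines in one fit. No gene of the 9 tested differed, as none of 12911 rows did (0%; 1062 at an unadjusted p under 0.05; DESeq2 called 0, with 632). The differences, H9 minus HEK293T on the log2 scale, ran from -0.77 ± 0.61 for EGR1 (edgeR adjusted p = 0.760; 95% interval -2.01 to 0.47) to 0.31 ± 0.41 for DUSP1 (adjusted p = 0.868). Between these lay JUNB (-0.32 ± 0.91), JUN (-0.24 ± 0.94), MYC (-0.18 ± 0.21), IER2 (0.04 ± 0.23), JUND (0.18 ± 0.33), FOSB (0.19 ± 1.99) and FOS (0.25 ± 0.42). The limit on the H9 labels given above holds here too. With intervals this wide the EGR1 change seen in HEK293T is not shown to be absent from H9.

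JUN was the immediate early gene that separated the H9 sets. It had 29 reads in each of the 2 set 1 libraries and 94 and 44 in set 2, or 18.4 and 15.4 CPM against 62.2 (control) and 46.9 (eIF2A shRNA). Both set 2 libraries were above both set 1 libraries, and the ratio of set 2 to set 1 was 3.38 (2.21 to 5.32) in control and 3.04 (1.86 to 5.04) in eIF2A shRNA libraries, or 3.36 (2.45 to 4.65) pooled. Of 8658 rows with at least 10 CPM, 7 (0.0809%) were at least as far apart between the sets, JUN included. Ratios nearer to 1 were measured for 5 others: 0.962 (0.813 to 1.14) for IER2, 0.857 (0.735 to 0.998) for MYC, 1.25 (0.959 to 1.63) for JUND, 1.36 (0.762 to 2.42) for FOS and 0.895 (0.526 to 1.498) for DUSP1. EGR1 (0.520, 0.185 to 1.29), JUNB (1.18, 0.284 to 4.62) and FOSB (2 reads in set 1 and 0 in set 2, a ratio of at most 7.51) had too few reads to place. EIF2A itself also differed between the H9 sets, with a ratio of set 2 to set 1 of 0.589 (0.451 to 0.765) in control and 0.619 (0.460 to 0.823) in eIF2A shRNA libraries, and its part in the JUN difference was not tested. In HEK293T the JUN ratio of set 2 to set 1 was 0.980 (0.955 to 1.01) in control and 1.09 (1.06 to 1.12) in eIF2A siRNA libraries. The labels say no more of the H9 sets than their number, and since EIF2A and the letters of the file names both follow the set, what a set 2 to set 1 ratio compares is not settled by these sources.

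**Figure D3:**
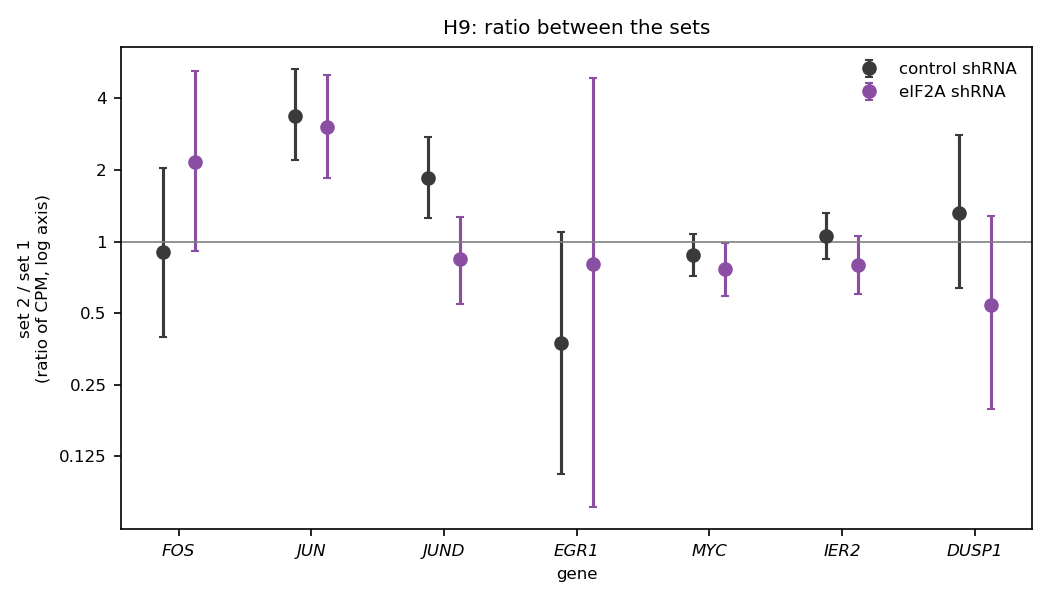
Ratio of CPM in H9 set 2 to set 1 for 7 immediate early genes, in control shRNA (black) and eIF2A shRNA (purple) libraries, 1 library each, on a log axis with exact 95% intervals for counting error. JUN lay near 3 under both shRNA labels, and JUND lay above 1 in control and below 1 in eIF2A shRNA.

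Levels in the 2 lines differed far more than under either knockdown label. All 9 genes tested were lower in H9 control than in HEK293T control libraries, where 71.8% of 12307 rows were called, 34.5% higher and 37.3% lower in H9. The median of the 9 log2 differences was -3.91, against -0.07 for all rows (0.09 with library sizes alone as the scaling). That median is the value of JUNB, which like FOSB and EGR1 had too few H9 reads to be tested within H9. Genes so low in H9 are tested here mainly when they are high in HEK293T. The direction of FOSB, JUNB and EGR1, and a median that rests on them, is therefore not read as a result. Cell line, arsenite, pull-down and the use of siRNA or shRNA all differ between these groups and cannot be told apart.

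The largest gaps were in FOS, FOSB, EGR1 and JUN. FOS stood at 674 to 743 CPM in the 4 HEK293T control libraries and at 9.51 and 8.60 in H9 control, a ratio of 78.0 (95% interval 53.9 to 117, counting error only) and a log2 difference of -6.45 ± 0.23 (edgeR adjusted p = 2.72e-174). EGR1 stood at 437 to 468 CPM against 8.88 and 3.31, a ratio of 73.1 (46.8 to 121; log2 difference -6.35 ± 0.24, or -7.20 without H9 control set 1). FOSB, at 45.9 to 62.3 CPM in HEK293T control, rested on 1 read in the H9 controls, so its ratio of 166 has an interval of 29.7 to 6550. These 3 genes thus stood at the low end of what the H9 depth can measure.

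JUN stood at 1038 to 1072 CPM in HEK293T control and at 18.4 and 62.2 in H9 control, a ratio of 26.7 (22.3 to 32.1). Its log2 difference was -4.88 ± 0.18, and the 2 H9 sets moved it from -6.00 (without set 2) to -4.21 (without set 1), further than that SE, which rests on a spread that the fit shared over all rows. JUNB, at 19.9 to 33.5 CPM against 1.90 and 1.99, had a ratio of 13.4 (6.11 to 36.6). DUSP1 followed with 91.1 to 116 CPM against 9.51 and 12.6 and a ratio of 9.46 (6.75 to 13.7). In the order of these ratios the interval of FOSB overlaps those of FOS, EGR1, JUN and JUNB, the intervals of FOS and EGR1 overlap each other, and that of JUNB overlaps those of JUN and DUSP1, so the order within these pairs is not resolved.

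The other 3 genes had many reads in both lines. MYC stood at 390 to 413 CPM in HEK293T control and at 140 and 123 in H9 control (ratio 3.04, 2.75 to 3.37; log2 difference -1.77 ± 0.16, edgeR adjusted p = 6.68e-29). IER2 stood at 134 to 160 CPM against 102 and 108 (ratio 1.41, 1.26 to 1.58; log2 difference -0.66 ± 0.16, edgeR adjusted p = 8.48e-05). JUND stood at 46.4 to 51.7 CPM against 27.3 and 50.3 (ratio 1.27, 1.05 to 1.54), and its H9 control values reach into the HEK293T range. Its log2 difference of -0.50 ± 0.20 passed (edgeR adjusted p = 0.0191), but not with library sizes alone (0.119), by DESeq2 (0.152) or without H9 control set 1 (-0.07, adjusted p = 0.791). Over all 12 libraries JUND spanned 36.5 to 60.7 CPM in HEK293T and 27.3 to 50.3 in H9, and IER2 124 to 160 and 80.0 to 108.

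**Figure D4:**
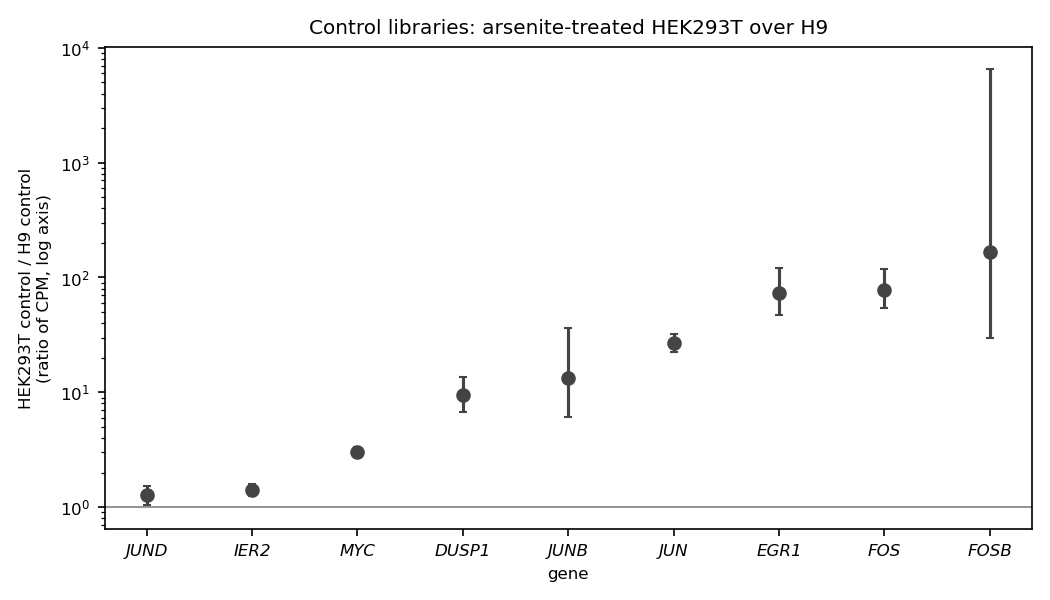
Ratio of CPM in HEK293T control to H9 control libraries, summed over both sets and pull-downs, for 9 immediate early genes in rising order on a log axis, with exact 95% intervals for counting error. JUND and IER2 lay below 1.5, MYC near 3, and FOS and EGR1 above 70; FOSB rests on 1 read in H9.

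Marker lists of other cell types were read beside these levels. Fibroblast markers summed to 552 to 838 CPM in H9 and 22.8 to 29.2 in HEK293T over 7 genes, mostly from COL1A1, COL1A2 and TAGLN, while DCN and LUM were at 0 in all H9 libraries. Markers associated with HEK293T summed to 216 to 263 CPM in HEK293T and 30.9 to 41.5 in H9 over 5 genes, with PAX8 at 0 in the former and PAX2 in the latter. Mesoderm markers reached at most 4.62 CPM in any library over 3 genes. Endoderm markers summed to 29.2 to 40.7 CPM in HEK293T and 0 to 7.98 in H9 over 4 genes. Ectoderm markers summed to 20.4 to 23.9 CPM in HEK293T and 0 to 3.73 in H9 over 2 genes. Trophoblast markers summed to 2.24 to 4.39 CPM in HEK293T and 16.5 to 20.2 in H9 over 3 genes. Their part in the immediate early gene levels was not tested.

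IER3, which encodes a stress-induced protein that affects ERK signalling and survival, was listed at 0 in all 12 libraries. Its neighbours in the major histocompatibility region of chromosome 6 were looked up because the row holds nothing else to judge it by. Of 21 found, 17 were also at 0 in all 12 libraries, among them TUBB, a beta-tubulin, and POU5F1, which defines embryonic stem cells, against 11.9% of all 19305 rows (2297 rows). The 0 is therefore given as what the files list, and no level of IER3 is read from it.

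The rows most like JUN, the gene of this group with the highest mean CPM, were DAAM1 (Pearson r = 0.998 of log2(CPM + 1) over the 12 libraries), ZNF226, BRD8, ATXN7L3B and CSTF3 (each 0.996), out of 6996 rows with a mean of at least 20 CPM. All were higher in HEK293T, with means of 142 and 37.0 CPM for DAAM1 and 315 and 123 for CSTF3. Since the 12 points fall in 2 cell lines and share libraries, r describes mainly that separation and carries no test.

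Of a wider list of 52 immediate early genes, 44 were tested in the siRNA comparison, with a median log2 change of -0.03 (0.0038 over all rows). 3 fell and none rose, where 6.29% of all rows fell and 6.15% rose, so the calls of this list are near the background. RHOB, a small GTPase, went from 186 ± 37.8 to 107 ± 16.3 normalised CPM (SD, n = 2; log2 change -0.80 ± 0.14, edgeR adjusted p = 4.92e-05). ATF3, a stress-induced leucine zipper factor, went from 86.3 ± 4.49 to 51.9 ± 5.85 (-0.73 ± 0.14, edgeR adjusted p = 0.000147), and KLF6, a zinc finger factor, from 49.1 ± 1.90 to 33.3 ± 1.31 (-0.56 ± 0.15, edgeR adjusted p = 0.00568). Of 20 AP-1 and ATF partners 19 were tested (median -0.05): JDP2 (0.73 ± 0.25, edgeR adjusted p = 0.0399) and FOSL2 (0.54 ± 0.19, adjusted p = 0.0430) rose and ATF3 fell. These counts and those of the next lists are small and are read against the same shares.

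In the MYC network, 13 of 14 genes were tested (median -0.02). MXD3, which competes with MYC for MAX, fell (-0.80 ± 0.21, edgeR adjusted p = 0.00732), and MXI1, another such competitor, rose (0.46 ± 0.15, adjusted p = 0.0246). Among 30 kinases and factors upstream of immediate early genes (median 0.09), 3 rose and none fell: SOS1, which activates RAS (0.77 ± 0.15, edgeR adjusted p = 0.000407), ELK4, a partner of SRF at CArG boxes (0.64 ± 0.20, adjusted p = 0.0209), and MAPKAPK2, a kinase below p38 (0.42 ± 0.15, adjusted p = 0.0445). None of 13 genes for AU-rich element binding and mRNA decay passed (median 0.07), HNRNPD having a log2 difference of -0.35 ± 0.14 (edgeR adjusted p = 0.0807) and TIAL1 0.23 ± 0.14 (adjusted p = 0.314). As for EGR1, none of these 10 called genes passed without the control set 2 pair. Without the eIF2A siRNA set 1 pair 8 did not pass, all but RHOB and ATF3, without control set 1 5 did not (KLF6, JDP2, FOSL2, MXI1 and MAPKAPK2), and without eIF2A siRNA set 2 FOSL2 and ELK4 did not. DESeq2 gave an adjusted p for 9 of the 10 and did not call FOSL2, MXD3, MXI1, ELK4 or MAPKAPK2. With either pull-down alone 6 of the 10 were lost. With library sizes alone JDP2 and MXD3 did not pass (edgeR adjusted p = 0.0525 and 0.0629). The log2 change of MXD3 ran from -1.13 without control set 1 to -0.43 without control set 2, and that of ELK4 from 0.95 to 0.40 in the same fits, while that of MAPKAPK2 was 0.27 without eIF2A siRNA set 1.

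In the main fits of the other knockdown and pull-down comparisons no gene of these lists was called, as no row was. In H9 the shRNA comparison tested 27, 12, 10, 27 and 12 genes of the 5 lists in the order above. The lowest p-values belonged to PLK3 (log2 difference 1.68 ± 0.51) and RHOB (-0.48 ± 0.26), MAFG (0.85 ± 0.42) and FOSL1 (-0.90 ± 0.49), MLXIP (0.51 ± 0.28) and MNT (-0.37 ± 0.36), MAP2K1 (-0.21 ± 0.18) and MAPK14 (-0.21 ± 0.21), and TIA1 (0.18 ± 0.18) and HNRNPD (-0.11 ± 0.11), all with an edgeR adjusted p of 1. In the pull-down comparison the same position was held by NR4A3 (0.43 ± 0.20) and KLF6 (0.17 ± 0.10), FOSL1 (0.41 ± 0.37) and MAFF (0.19 ± 0.18), MXD1 (-0.32 ± 0.19) and MXD4 (0.18 ± 0.11), ELK1 (-0.20 ± 0.16) and ELK3 (-0.25 ± 0.22), and TIAL1 (-0.08 ± 0.10) and HNRNPD (-0.06 ± 0.08), again with an edgeR adjusted p of 1. For the difference between the lines they were PLK3 (1.37 ± 0.59), MAFG (1.08 ± 0.44) and ATF3 (0.84 ± 0.42), MYCN (1.495 ± 0.65) and MXI1 (-0.97 ± 0.56), SOS1 (-0.91 ± 0.34) and MAPKAPK2 (-0.53 ± 0.30), and HNRNPD (0.22 ± 0.19) and PARN (-0.16 ± 0.23), with edgeR adjusted p from 0.480 to 0.894.

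Between the control libraries of the 2 lines the wider list did not move one way: 12 of 45 genes tested were higher and 25 lower in H9 (median log2 difference -0.78), where 34.5% of all rows were higher and 37.3% lower. The counts of the other lists below stand against the same shares. DUSP6, the phosphatase that removes ERK activity, stood at 240 ± 52.2 normalised CPM in H9 and 0.691 ± 0.456 in HEK293T (8.46 ± 0.26), which is opposite to DUSP1. GADD45B was higher in HEK293T by 360 (64.6 to 14240) on 1 H9 read, and NR4A3, at 0 in H9 control, by at least 5.62-fold against a floor of 3 reads over the group. Of 18 AP-1 and ATF partners 4 were higher and 10 lower in H9 (median -0.62), with ATF4, the main factor of the integrated stress response (-5.44 ± 0.21), and ATF3 (-2.88 ± 0.24) lower and NFE2L1 (2.55 ± 0.16) and FOSL1 (2.09 ± 0.43) higher.

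MYCN, a relative of MYC, went the opposite way to MYC, and most of the network was lower in H9 like MYC. MYCN stood at 124 ± 16.4 normalised CPM in H9 and 0.762 ± 0.0364 in HEK293T (log2 difference 7.31 ± 0.27, edgeR adjusted p = 1.16e-154), and of the 14 genes of that network 2 were higher and 8 lower in H9 (median -0.85, 10 of 14 below 0), among them FBXW7 (-4.11 ± 0.36), MAX (-3.78 ± 0.22) and MXD1 (-3.39 ± 0.60). Of 30 upstream kinases and factors 9 were higher and 7 lower (median 0.20), with MAPK8 higher (2.26 ± 0.24) and ELK4 (-1.69 ± 0.46), GRB2 (-1.62 ± 0.16) and RPS6KA5 (-1.59 ± 0.62) lower, the last not called by DESeq2 or without either H9 control library. Of 13 AU-rich element and decay genes 6 were higher and 2 lower (median 0.28), with ZFP36L1, which destabilises AU-rich mRNAs, higher by 2.99 ± 0.19, HNRNPD by 1.28 ± 0.14, KHSRP by 1.28 ± 0.14 and PARN by 1.16 ± 0.17.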

How the data were processed

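Ribosome footprints were sequenced in 12 libraries. Reads were trimmed with cutadapt and aligned to hg19 with STAR 2.5.2b, per the submitters' processing notes, and the authors deposited counts of reads per coding sequence, 1 file a library. Strand and multi-mapping settings: not given in the sources used here. Rows naming no gene held 87.5 to 96.5% of each file's reads and were left out of library sizes. RefSeq accessions were named with the RefSeq table of GRCh38.p14 (18888 of 19305, the other 417 kept as accessions), and sequences came from RefSeq windows of that build, whose coordinates are not those of hg19.

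The CBP80 and eIF4E counts of each siRNA and set were summed. Tests used edgeR 4.0.16 (R 4.3.3) on the counts: filterByExpr, TMM scaling, robust quasi-likelihood fits, and Benjamini-Hochberg adjustment over all rows tested with a threshold of 0.05. Ratios of counts use library sizes alone and have exact 95% intervals that cover counting error only, since PCR copies are not separate molecules. The main edgeR fits were tested on simulated counts, and the chi-square comparison on a library split at random. Alternatives were DESeq2 1.42.0, RLE scaling, library sizes alone, no filter or a mean count of at least 50, each pull-down alone, a set block, and leaving out each library. Pull-downs of the same siRNA and set deviated together (correlation of deviations 0.600 and 0.694). No label ties a set number to a shared culture or day, so the tests of siRNA and shRNA have no block. The main pull-down fit had no block either, and the block of 4 pairs was run as an alternative.

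The genes and lists were chosen with earlier results of these data known. All 10 genes are given in every comparison, those with too few reads to test by their counts. From each list the text names at most 4 called genes with the largest absolute log2 change, or the 2 of smallest p where none passed (1 gene of the wider list is not reported here), and the 5 rows most like the gene of highest mean CPM.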

Additional observations from a re-analysis of the deposited data

How the results depend on the processing

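With 2 sets, 1 library can decide a call. The HEK293T siRNA comparison called 1534 rows. In separate fits, whose overlap with these rows was not counted, DESeq2 called 682, CBP80 libraries alone 473, eIF4E libraries alone 383 and the replicate block by set number 2993. Leaving out 1 summed pair gave 75 to 2086 calls: 983 without control set 1, 75 without control set 2 and 287 without eIF2A siRNA set 1. EGR1 stayed lower throughout, from -0.48 to -0.60 on the log2 scale in these leave-one-out fits, and its edgeR adjusted p without control set 1, eIF2A siRNA set 1 and eIF2A siRNA set 2 was 0.0464, 0.0325 and 0.00384. Under the block JUN also passed (edgeR adjusted p = 0.0242). Libraries of one set number deviated together across the siRNA labels (correlation of deviations 0.458, pull-downs summed) and across the shRNA labels (0.451), but not across the lines (-0.0425); with 2 sets this is a hint from the data, not the design. The pull-down comparison gave 3 calls with no filter, 1 by DESeq2, 6 with the block of 4 pairs and 0 to 2 without 1 library, none of them an immediate early gene. The difference between the lines gave 0 to 1.

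Uncalled differences changed sign for FOSB in the siRNA comparison with library sizes alone (0.0058) and for DUSP1 in H9 by DESeq2 (-0.0146). With 1 library left out, the siRNA values ran from -0.11 to 0.51 for JUNB, -0.25 to 0.10 for FOSB, -0.40 to 0.0919 for JUND and -0.88 to 0.0596 for EIF2A, and the shRNA values from -0.33 to 0.57 for JUND, -0.54 to 0.31 for DUSP1, -0.51 to 0.62 for FOS, -1.39 to 0.63 for JUN and -0.25 to 0.58 for EIF2A. Causes were not tested. In H9, 3 reads amount to 1.60 to 3.20 CPM, which limits FOSB, JUNB and EGR1 there.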

Other observations

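JUN was 1 of 7 rows of at least 10 CPM that stood this far apart between the H9 sets, and the other 6 are named here after their values were seen. GDF15, a stress-induced secreted factor, was the other row higher in set 2, at 44.1 CPM against 7.81 in set 1 over both shRNA labels (ratio 5.64, 95% exact interval 3.67 to 8.95, counting error only). Lower in set 2 were ZFHX3 (ratio 0.182, 0.103 to 0.302), PECR (0.208, 0.0909 to 0.422), CDC42EP3 (0.219, 0.104 to 0.415), DENR (0.273, 0.205 to 0.358) and NMT2 (0.286, 0.149 to 0.513). DENR, which acts in translation reinitiation and ribosome recycling, had the most reads of these, with 331 in set 1 and 64 in set 2.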
